A study of Drosophila melanogaster with 4 samples.

Results

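The genes described here encode the cytoplasmic translation initiation factors (symbols starting with eIF) and elongation factors (symbols starting with eEF) of *Drosophila melanogaster*. They were taken by symbol alone, and each needed at least 10 counts summed over all libraries. The reference annotation held 52 such symbols, 50 had an identifier in the count tables, and 46 of the 17023 listed genes met the minimum. All 46 also had enough counts to enter the test across genes, which covered 10245 genes. *eIF4E7*, with 57 counts in all, was the lowest gene inside the minimum and *eIF4H2*, with 7, was the highest outside it. *eIF4E4*, *eIF3d2* and *eIF3g2* were listed at 0 counts in every library. *eEF1alpha1*, which carries aminoacyl-tRNA to the ribosome, and *eEF5* were not found in the tables under the identifiers of the annotation and were not analysed here.

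Translation starts when the eIF4 factors bind the cap of an mRNA and eIF2 brings the initiator tRNA to the small ribosomal subunit. eIF3 holds this complex together while it scans for the start codon, and eIF2B recharges eIF2 with GTP after each round. The elongation factors then deliver aminoacyl-tRNA and move the ribosome along. In the *Drosophila* ovary much control of development acts on these steps, because proteins bound to maternal mRNAs block or permit cap-dependent initiation. Several factors have paralogs with roles in the germline: *eIF4E3* and *eIF4G2* are needed in the male germline, and *eIF4EHP* binds the cap without recruiting the ribosome.

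Poly(A) RNA was measured in ovaries dissected 2 to 3 days after eclosion, with 2 libraries for each of 2 genotypes and no group without a hairpin. Every fly carried UAS-Dcr2, which strengthens RNA interference, and the germ cell driver nosGAL4. The first genotype carried a hairpin against *bam*, the factor that daughters of germline stem cells need to differentiate. The second carried one against *Nipped-A*, a large scaffold subunit of the acetyltransferase complexes Tip60 and SAGA. Because the driver acts in germ cells, the hairpins were aimed at the germline, while whole ovaries with their somatic cells were sequenced. Library totals ran from 21193517 to 47825006 counts. Nothing in the labels tells if a group's libraries were made from different flies, and p-values measure the spread between these libraries, which might be technical only.

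The targeted transcripts were read first. *bam* had 4.70 and 6.52 CPM, meaning counts relative to the TMM-scaled library total, in *bam* RNAi libraries 1 and 2 and 29.0 and 16.9 CPM in *Nipped-A* RNAi libraries 1 and 2. *Nipped-A* had 287 and 247 CPM against 430 and 439 CPM, so it was higher in the libraries labelled as its own knockdown. Directions below therefore refer to the labels, and libraries are called *bam*-labelled and *Nipped-A*-labelled. Marker transcripts of several cell types differed as well. Summed over 8 muscle sheath markers, levels were 26282 and 26141 CPM in the *bam*-labelled libraries and 7119 and 8709 CPM in the *Nipped-A*-labelled ones, with 7 of the 8 markers called lower. The 5 hemocyte markers summed to 5288 and 4719 CPM against 2420 and 2456 CPM, with 3 called lower and 1 higher. The 6 germline markers summed to 1075 and 985 CPM against 2773 and 2052 CPM, with 5 called higher. Of these, *osk* alone went from 82.8 and 82.9 CPM to 923 and 455 CPM. The remaining marker, *aub*, was lower but not called, at 195 and 188 against 138 and 108 CPM. The 6 gut markers summed to 3.80 and 4.18 CPM against 867 and 2537 CPM, all 6 called higher. Of 6 follicle cell markers 2 were called higher and 1 lower, and their sums overlapped, at 1163 and 1048 against 1255 and 1140 CPM. Of 5 fat body markers 4 were called lower. Their sums overlapped too, at 387 and 391 against 418 and 148 CPM, and *Lsp2*, the most abundant, had a log2 fold change of 0.15. The part of these shifts in the results on translation factors was not tested, and in bulk RNA fewer cells of a type and less RNA per cell cannot be told apart.

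Translation factor transcripts were, as a whole, slightly lower in the *Nipped-A*-labelled libraries. Together the 46 genes took 2.34% and 2.32% of all counts in the *bam*-labelled libraries and 2.02% and 2.00% in the *Nipped-A*-labelled ones. In the test across all genes 9 of the 46 fell and 0 rose (quasi-likelihood test of edgeR, adjusted p by Benjamini-Hochberg below 0.05), with 19 lower and 2 higher at an unadjusted p below 0.05. DESeq2 called 2 higher, *eIF4G1* and *eIF4G2*, beside 2106 of the 10245 genes tested, and limma-voom 0, beside 856. By edgeR 19.6% of all genes tested were called, 8.31% lower and 11.3% higher. Among the 1025 tested genes above the 90th percentile of level, where 27 of the 46 lay, 21.7% were called lower and 18.2% higher. The median log2 fold change of the 46 was −0.34, beside 0.00 over all genes tested, and 37 of the 46 values were negative, beside 50.1% of all genes. Both *Nipped-A*-labelled libraries lay below both others for 32 of the 46 genes and above them for 3. Over all genes tested these shares were 35.3% and 33.6%.

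The genes that fell were *eIF6*, *eIF2alpha*, *eIF2Balpha*, *eIF3e*, *eIF3f1*, *eIF3h*, *eIF4E3*, *eEF1gamma* and *eEF1delta*, with at least 1 in each role class. Apart from *eIF4E3*, each kept 52.5% to 68.7% of its mean level. The number that fell depended on the libraries and the scaling. It was 0 without *bam* RNAi library 1 or 2, where edgeR called 0 genes of any kind. At an unadjusted p below 0.05 these fits held 2373 and 1837 genes, with 4 and 3 of the 46 lower. It was 21 and 16 without *Nipped-A* RNAi library 1 or 2. Upper-quartile scaling gave 21 and DESeq2 16, and removing the trend of fold change with exonic length left 1, *eIF6*. Over all 10245 genes tested these settings called 1556, 1415 and 640 lower, beside 851 in the main fit. Upper-quartile scaling shifted the median of all genes by −0.21. The median of the 46 minus that of all genes stayed at −0.34 under upper-quartile, RLE and library-size scaling and was −0.22 with the length trend removed.

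**Figure D1:**
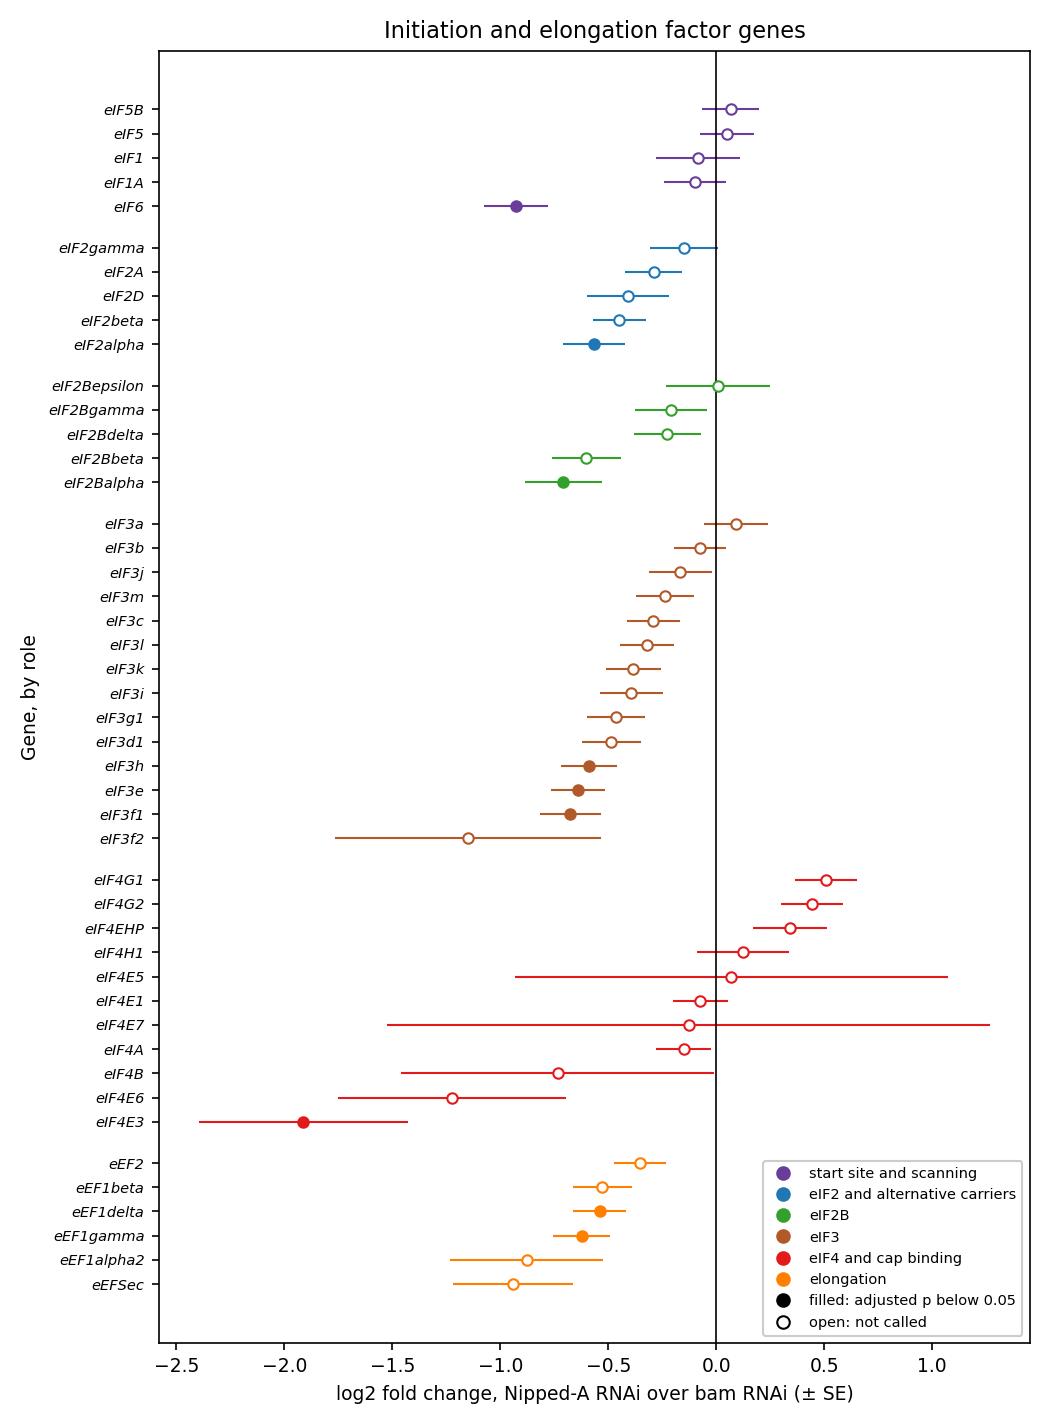
Log2 fold change of each of the 46 genes, libraries labelled Nipped-A RNAi over those labelled bam RNAi, with its standard error, grouped by role. Filled points are the 9 genes with an adjusted p below 0.05, all left of 0, while eIF4G1, eIF4G2 and eIF4EHP stand farthest to the right.

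Among the 5 factors of start site selection and subunit joining, *eIF6* alone passed the test. It encodes the factor that binds the large ribosomal subunit and keeps it from joining the small one too early. *eIF6* (FBgn0034915, dm6 chromosome 2R, 23849246 to 23850301) had 95.3 and 90.9 CPM in the *bam*-labelled libraries and 50.7 and 47.1 CPM in the *Nipped-A*-labelled ones, or 93.1 ± 3.11 against 48.9 ± 2.53 (mean ± SD, n = 2). The groups did not overlap and lay 1.90-fold apart. Its log2 fold change was −0.93 ± 0.15 (SE; edgeR, adjusted p = 0.0191), and it was called under all 11 other settings that kept the 4 libraries. The other members of the class lay close to even. *eIF1*, which guards start codon selection, had 319 and 348 against 261 and 367 CPM (−0.09 ± 0.20). *eIF1A*, its partner on the small subunit, stood at −0.10 ± 0.14, *eIF5*, which triggers GTP hydrolysis by eIF2, at 0.05 ± 0.12, and *eIF5B*, which joins the subunits, at 0.07 ± 0.13. The groups overlapped for *eIF1*, *eIF1A*, *eIF5* and *eIF5B*. Per exonic kilobase *eIF6* was 1.82 and 1.96 times as abundant as *eIF5B* in the *bam*-labelled libraries and 0.994 and 0.898 times as abundant in the others. This ratio restates the fold changes of both genes. *eIF5* shares 80.8% of its exonic bases with *CG46312* on the same strand, which is not among the genes analysed here.

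The eIF2 complex and its exchange factor were lower in part of their subunits. *eIF2alpha*, the subunit whose phosphorylation slows initiation under stress, went from 272 and 258 CPM to 194 and 164 CPM. Its groups did not overlap, and its log2 fold change was −0.57 ± 0.14 (edgeR, adjusted p = 0.0494). *eIF2beta* was at −0.45 ± 0.12 (edgeR, adjusted p = 0.0583) with groups that did not overlap, and *eIF2gamma*, the GTP-binding subunit, at −0.15 ± 0.16 with groups that did. *eIF2gamma* shares 16.0% of its exonic bases with *Su(var)3-9* on the same strand, so its counts may miss or divide reads. The alternative carriers of initiator tRNA, *eIF2A* (−0.29 ± 0.13) and *eIF2D* (−0.41 ± 0.19), were not called.

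In eIF2B, the guanine nucleotide exchange factor of eIF2, *eIF2Balpha* went from 43.4 and 47.4 CPM to 27.6 and 28.0 CPM. Its groups lay apart by 1.63-fold (log2 fold change −0.71 ± 0.18; edgeR, adjusted p = 0.0493). *eIF2Balpha* and *eIF2Bbeta* belong to the regulatory subunits that sense phosphorylated eIF2. *eIF2Bbeta* stood at −0.60 ± 0.16 (edgeR, adjusted p = 0.0560), with 66.4 and 63.1 against 43.8 and 41.6 CPM. The third regulatory subunit, *eIF2Bdelta*, stood at −0.23 ± 0.15. Of the catalytic subunits, *eIF2Bgamma* stood at −0.21 ± 0.17 and *eIF2Bepsilon* at 0.01 ± 0.24. *eIF2Bepsilon* varied most between the *Nipped-A*-labelled libraries, at 63.7 and 42.4 CPM. The calls of *eIF2alpha* and *eIF2Balpha* lay just under the threshold. Among other settings, both ended under RLE scaling (adjusted p = 0.0606 and 0.0586), library size alone (0.0673 and 0.0612), the filter of 10 counts (0.0611 and 0.0600) and the length trend (0.115 and 0.171). That of *eIF2alpha* also ended under limma-voom (0.0551), and that of *eIF2Balpha* with nearly every gene kept (0.0569). Both ended as well with the replicate number as a block.

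Of the 14 eIF3 genes 3 fell and 0 rose, with a median log2 fold change of −0.39 and 13 negative values. The share that fell was 21.4%, beside 8.31% over all genes tested. It was 11.5% over genes of up to 1666.5 exonic bases and 21.7% over those above the 90th percentile of level. *eIF3e* had 475 and 465 CPM in the *bam*-labelled libraries and 315 and 288 CPM in the others, a log2 fold change of −0.64 ± 0.13 (edgeR, adjusted p = 0.0291). *eIF3f1* had 312 and 346 against 220 and 192 CPM (−0.68 ± 0.14; edgeR, adjusted p = 0.0319). *eIF3h* had 456 and 487 against 298 and 328 CPM (−0.59 ± 0.13; edgeR, adjusted p = 0.0367). The 3 groups of values were each fully apart, and all 3 calls ended with the length trend removed (adjusted p = 0.0600, 0.0757 and 0.104). These 3 subunits belong to the octamer of eIF3, the core of the animal complex, and *eIF3f1* and *eIF3h* carry its MPN domains. The other 5 of the 8 octamer subunits, *eIF3a* among them, were not called. The median of the 8 was −0.35, beside −0.39 for the 3 genes of the b, g and i module, of which 0 were called.

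*eIF3a* and *eIF3b* had log2 fold changes close to 0. *eIF3a*, the largest, had 503 and 461 CPM in the *bam*-labelled libraries and 557 and 470 CPM in the others (0.09 ± 0.15), with overlap. *eIF3b*, the hub that holds the g and i subunits, had 899 and 884 against 860 and 833 CPM (−0.07 ± 0.12). The remaining subunits did not pass the test: *eIF3c* (−0.29), *eIF3m* (−0.24), *eIF3l* (−0.32), *eIF3k* (−0.38), *eIF3i* (−0.39), *eIF3g1* (−0.46), *eIF3d1* (−0.49) and the loosely bound *eIF3j* (−0.17). The low paralog *eIF3f2* is described with the other paralogs. Per exonic kilobase *eIF3e* stood at 2.42 and 2.58 times *eIF3a* in the *bam*-labelled libraries and at 1.45 and 1.57 times in the others. The same ratio to *eIF3b* went from 0.932 and 0.929 to 0.647 and 0.610. Neither ratio overlapped between the genotypes. These ratios restate the fold changes given for the same genes, and with 2 against 2 libraries no test was made.

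Levels of the 9 genes that fell spanned from *eEF1gamma*, at 2101 ± 92.2 against 1365 ± 103 CPM, to *eIF4E3*, at 8.15 ± 1.82 against 2.18 ± 0.894 CPM (mean ± SD, n = 2).

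**Figure D2:**
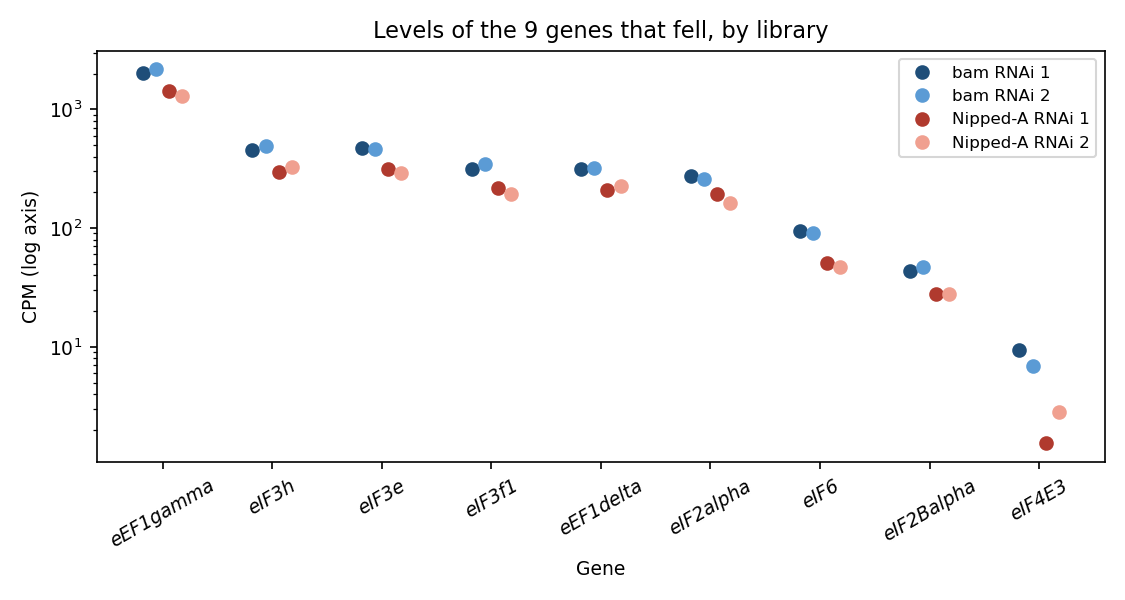
CPM on a log axis for the 9 genes that fell, with 1 point for each of the 4 libraries and genes ordered by their mean in the libraries labelled bam RNAi. In each gene both red points (Nipped-A RNAi) lie below both blue points (bam RNAi), and the gap is widest for eIF4E3, at 9.44 and 6.86 against 1.55 and 2.81 CPM.

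The eIF4 class binds and unwinds the cap end of mRNAs. Of its 11 genes 1 fell and 0 rose by edgeR, with 6 negative values, and the median was −0.07, close to that of all genes. The share that fell was 9.09%, beside 8.31% over all genes tested. *eIF4G1*, the scaffold that links the cap-binding protein to eIF3, lies on chromosome 4 (915297 to 930715) and had 822 and 787 CPM in the *bam*-labelled libraries and 1045 and 1241 CPM in the others. Its groups did not overlap, at a log2 fold change of 0.51 ± 0.14 (edgeR, adjusted p = 0.0626). It was called under RLE scaling (adjusted p = 0.0476), library size alone (0.0456) and DESeq2 (0.000958), and stood at 0.16 (adjusted p = 0.404) with the length trend removed. *eIF4G2*, the paralog needed in male germ cells, had 219 and 190 against 262 and 294 CPM (0.44 ± 0.14; edgeR, adjusted p = 0.0858). *eIF4EHP*, the cap-binding repressor that acts on maternal mRNAs such as *caudal* in the embryo, had 100.4 and 79.2 against 108 and 119 CPM (0.34 ± 0.17). *eIF4G1*, *eIF4G2* and *eIF4EHP* were those of the 46 genes with both *Nipped-A*-labelled libraries above both others. *eIF4G2* and *eIF4EHP* share 8.56% and 6.96% of their exonic bases with a neighbour on the same strand.

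The helicase *eIF4A*, which unwinds the leader of an mRNA, was at 2371 and 2404 against 2044 and 2254 CPM (−0.15 ± 0.13). Its cofactor gene *eIF4H1* ranged within both groups, at 420 and 317 against 344 and 458 CPM (0.12 ± 0.21). *eIF4B*, another helicase cofactor, was near the floor of detection at 1.33 and 0.938 against 0.489 and 0.890 CPM (−0.73 ± 0.73). Whether these low counts reflect the true level of *eIF4B* was not tested. Per exonic kilobase *eIF4G1* was at 0.131 and 0.124 of *eIF4A* in the *bam*-labelled libraries and at 0.193 and 0.208 in the *Nipped-A*-labelled ones. Relative to *eIF4E1* it went from 0.461 and 0.409 to 0.577 and 0.727. Both ratios were higher in each *Nipped-A*-labelled library, which restates the fold changes given for the same genes.

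The cap-binding paralogs differed far more in level than *eIF4E1* differed between genotypes. *eIF4E1*, the general cap-binding protein, had 606 and 655 CPM in the *bam*-labelled libraries and 617 and 581 CPM in the others (−0.07 ± 0.13; edgeR, adjusted p = 0.700). Per exonic kilobase it made up 89.4% and 92.0% of the 7 eIF4E-type genes in the first group and 93.0% and 90.9% in the second. *eIF4EHP* came next, with 3.88% to 6.51%. *eIF4E3* (chromosome 3L, 8229224 to 8230568) had 313 and 161 counts, or 9.44 and 6.86 CPM, in the *bam*-labelled libraries, and 76 and 60 counts, or 1.55 and 2.81 CPM, in the *Nipped-A*-labelled ones. It fell 3.76-fold, the largest change among the 46 (log2 fold change −1.91 ± 0.48; edgeR, adjusted p = 0.0494). Its share of the family per exonic kilobase went from 2.99% and 2.07% to 0.501% and 0.945%. Among other settings, the call ended with the filter of 10 counts (adjusted p = 0.0532) and with the length trend removed (0.0865). It also ended with the replicate number as a block.

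*eIF4E6* showed the same order of libraries at a similar level without passing the test. It had 4.91 and 3.54 against 1.34 and 2.30 CPM (−1.22 ± 0.53; edgeR, adjusted p = 0.153). *eIF4E5* and *eIF4E7* were at the edge of detection and had more CPM in library 2 of each genotype. *eIF4E5* had 9 and 19 counts against 15 and 18, and *eIF4E7* 6 and 24 against 5 and 22. At 0.541 ± 0.381 against 0.574 ± 0.380 CPM for *eIF4E5* and 0.602 ± 0.595 against 0.566 ± 0.657 CPM for *eIF4E7* (mean ± SD, n = 2), no difference was detectable at this depth. The eIF3 paralog *eIF3f2* was low as well, at 2.86 and 1.53 against 0.997 and 0.984 CPM (−1.15 ± 0.62; edgeR, adjusted p = 0.228). It made up at most 1.13% of the level of its pair with *eIF3f1* per exonic kilobase.

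**Figure D3:**
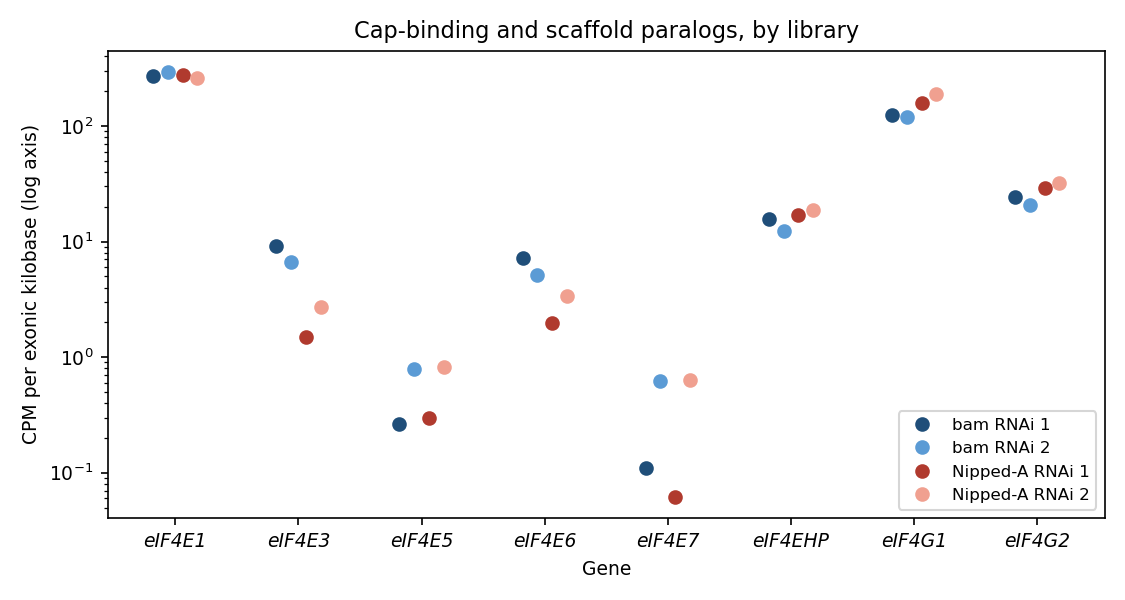
CPM per exonic kilobase, on a log axis, of the eIF4E-type genes with counts and of both eIF4G genes, with 1 point per library. eIF4E1 stays between 260 and 293 in all 4 libraries, eIF4E3 and eIF4E6 are lower in both Nipped-A RNAi libraries, and eIF4E5 and eIF4E7 are higher in library 2 of each genotype.

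Elongation factors were the class with the lowest median. All 6 values were negative, 2 passed the test, and the median log2 fold change was −0.58. The share that fell was 33.3%, beside 8.31% over all genes tested. It was 11.5% over genes of up to 1666.5 exonic bases and 21.7% over those above the 90th percentile of level. Together the 6 genes went from 10648 and 10588 CPM to 8036 and 7822 CPM. *eEF2*, the translocase that moves the ribosome by one codon, was the most abundant of the 46 genes at 2161 CPM per exonic kilobase. It had 7534 and 7280 CPM in the *bam*-labelled libraries and 5810 and 5791 CPM in the others, groups that did not overlap (−0.35 ± 0.12; edgeR, adjusted p = 0.0969). The subunits of the eEF1 exchange complex, which reloads the tRNA carrier with GTP, had like values. *eEF1gamma* had 2036 and 2166 against 1438 and 1292 CPM (−0.62 ± 0.13; edgeR, adjusted p = 0.0331). *eEF1delta* had 317 and 317 against 211 and 225 CPM (−0.54 ± 0.12; edgeR, adjusted p = 0.0387). *eEF1beta* had 738 and 795 against 564 and 499 CPM (−0.53 ± 0.14; edgeR, adjusted p = 0.0512). With the length trend removed *eEF1gamma* stood at −0.47 (adjusted p = 0.0535), while *eEF1delta* and *eEF1beta* stood at −0.17 each.

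The 2 remaining elongation genes had low counts. *eEFSec*, the factor dedicated to selenocysteine, had 13.4 and 13.1 against 6.94 and 6.89 CPM, so the replicates lay close together. Its log2 fold change of −0.94 ± 0.28 did not pass (edgeR, adjusted p = 0.0690), and it was called under DESeq2 (0.0178) and upper-quartile scaling (0.0396). *eEF1alpha2*, the minor paralog of the tRNA carrier, had 10.8 and 16.6 against 6.41 and 8.48 CPM (−0.88 ± 0.35; edgeR, adjusted p = 0.135).

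Fold change among the 46 genes followed exonic length. Pearson's r between log2 fold change and log2 exonic length was 0.64 and Spearman's rho 0.60 (46 genes, from the same libraries and hence not independent). Over 10032 tested genes with a length the values were 0.04 and 0.24. The 23 genes up to the median length of 1666.5 bases had a median log2 fold change of −0.54 with 8 of the 9 falls, and the 23 longer ones −0.15 with 1. Over all tested genes in the same length ranges the medians were −0.27 and 0.15, and 11.5% and 6.13% were called lower. In both ranges the translation factors had the lower median. The 3 genes above both *bam* RNAi libraries were also the longest 3, with 6418 to 9097 exonic bases. The shortest were *eIF1*, with 681, and *eIF4E6*, with 686.

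**Figure D4:**
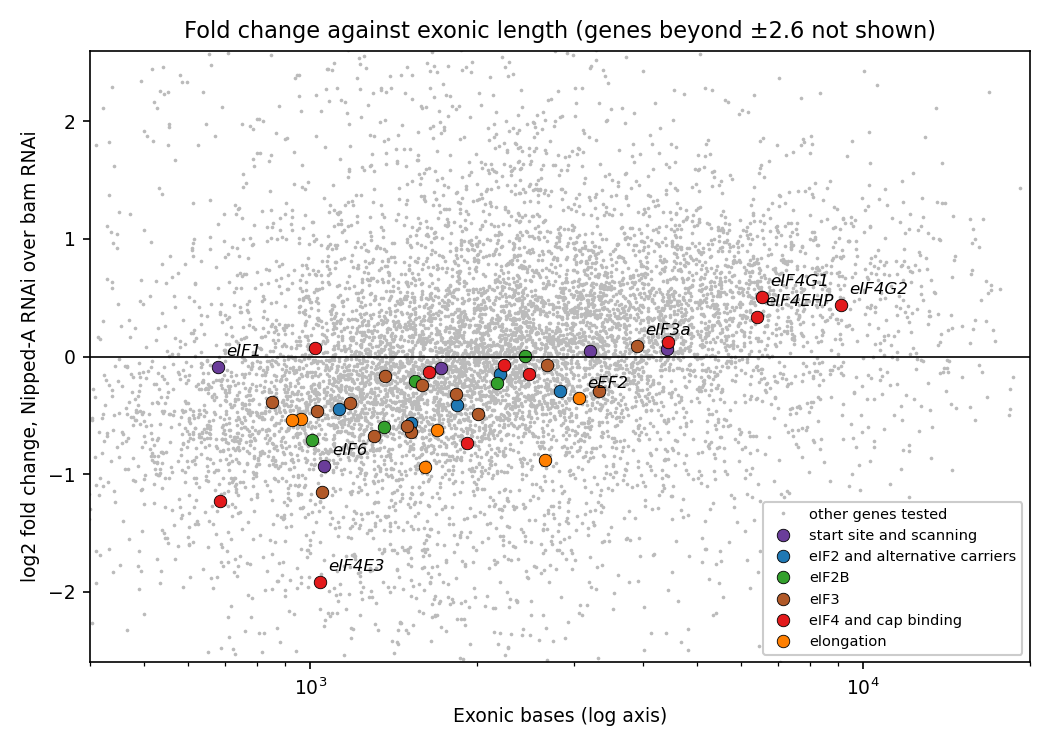
Log2 fold change of each tested gene against its exonic length on a log axis, with the 46 factors coloured by role and other genes in grey. The factors run from mostly negative values at short lengths to eIF4G1, eIF4EHP and eIF4G2 at the long end.

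The 46 genes were abundant as a group. Of these, 38 lay above the median level of the tested genes and 27 above their 90th percentile, and 38 had a mean above 20 CPM. For these 38 the median absolute log2 difference between replicates was 0.08 in the *bam* RNAi pair and 0.15 in the *Nipped-A* RNAi pair. Their median absolute log2 fold change between genotypes was 0.35. Over all 6214 tested genes above 20 CPM these 3 values were larger, at 0.13, 0.27 and 0.43. The 46 genes were spread over chromosome arms 2L (5), 2R (11), 3L (10), 3R (12), X (7) and chromosome 4 (1). In all, 18 shared exonic bases with another annotated gene, 14 of them only with a gene on the opposite strand. Among the genes that fell, *eIF3h* (16.8% of its exonic bases) and *eIF2alpha* (12.6%) shared the most. Their antisense neighbours stood at 0.34 and 0.32 on the log2 scale, and an effect of the shared bases on the counts was not tested.

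Of 83 cytoplasmic ribosomal protein genes tested 65 fell and 0 rose. All 83 values were negative, with a median log2 fold change of −0.79, beside −0.58 for the elongation factors. The share that fell was 78.3%, beside 8.31% over all genes tested. It was 11.5% over genes of up to 1666.5 exonic bases and 21.7% over those above the 90th percentile of level. With the length trend removed 23 fell, beside 640 of all 10245 genes. Of 8 genes listed for termination, recycling and rescue 0 passed the test by edgeR and 0 had an unadjusted p below 0.05, while DESeq2 called 1 higher. Their median was 0.08, with the release factors *eRF1* at 310 and 303 against 334 and 326 CPM (0.11 ± 0.12) and *eRF3* at 0.11 ± 0.12. The recycling ATPase *pix*, at 0.05 ± 0.12, was as close to even. The 8 listed genes include *kra*, which is not a factor of these steps, at 0.13 ± 0.12. Of 8 mitochondrial translation factors 0 were called by edgeR, with 1 higher and 3 lower at an unadjusted p below 0.05 and a median of −0.22. DESeq2 called 1 higher and 2 lower, beside 2106 higher and 1415 lower of the 10245 genes tested. The mitochondrial carrier of aminoacyl-tRNA, *mEFTu1*, was the most abundant and stood at −0.55 ± 0.14 (edgeR, adjusted p = 0.0518).

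Of 13 tested partners and repressors of the cap complex 5 rose and 0 fell, and 6 of the 13 values were negative. Their median log2 fold change was 0.45, beside −0.001 over all genes tested. The share called higher was 38.5%, beside 11.3% over all genes. It was 14.8% over genes longer than 1666.5 bases and 18.2% over those above the 90th percentile of level. With the length trend removed 5 rose as well, and under upper-quartile scaling 5 rose and 2 fell. *Paip2*, which takes poly(A)-binding protein off the mRNA, had 113 and 102 against 312 and 339 CPM, a rise of 3.04-fold (edgeR, adjusted p = 0.00925). *NAT1*, an eIF4G relative without the cap-binding link, had 661 and 620 against 1364 and 1181 CPM (0.99 ± 0.14; edgeR, adjusted p = 0.0159). *Gyf* (0.85 ± 0.13), which works with *eIF4EHP*, and *4E-T* (0.82 ± 0.14), which binds eIF4E in repressed mRNPs, rose too. *bru1*, which represses *osk* translation in the oocyte, rose as well, by 1.85 ± 0.31 on the log2 scale. *Thor*, the fly 4E-BP, was not called at 349 and 366 against 241 and 374 CPM, nor was the poly(A)-binding protein gene *pAbp* at 4857 and 3412 against 3670 and 4597 CPM. *cup*, a binding partner of eIF4E that is abundant in ovaries, was listed at 0 counts in all 4 libraries. It shares 100% of its 4306 exonic bases with *CG34310*, and its level was therefore not read from these counts.

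Of 14 regulators and modifying enzymes 1 rose and 1 fell, 7.14% each, beside 11.3% called higher and 8.31% lower over all genes tested. *Lk6*, the kinase of eIF4E, rose from 1035 and 952 CPM to 1573 and 2056 CPM (0.87 ± 0.17; edgeR, adjusted p = 0.0295). *Dph2*, an enzyme of the diphthamide modification of eEF2, fell from 65.1 and 80.3 CPM to 41.6 and 41.8 CPM (−0.80 ± 0.18; edgeR, adjusted p = 0.0384). Both calls ended with the length trend removed. The eIF2alpha kinases *Gcn2* (0.56 ± 0.15; edgeR, adjusted p = 0.0545) and *PEK* (0.84 ± 0.21) stood just above the threshold. Under DESeq2 5 of the 14 rose and 2 fell, beside 2106 higher and 1415 lower of the 10245 genes tested.

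**Figure D5:**
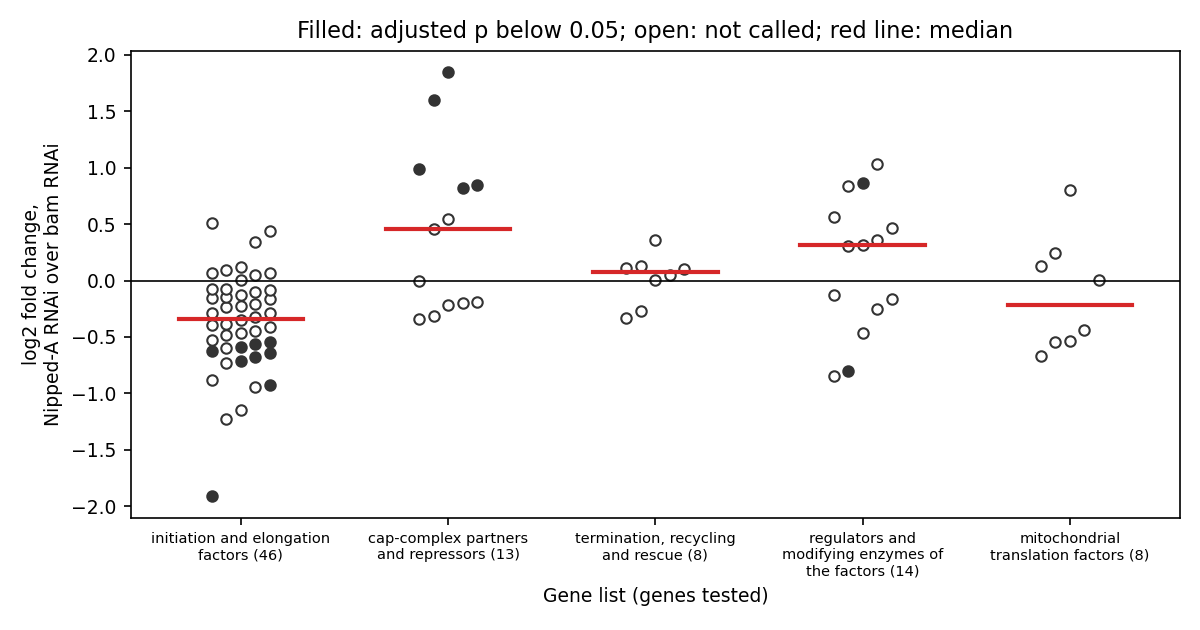
Log2 fold changes of the 46 initiation and elongation factors and of 4 lists of related genes, with 1 point per gene, filled where the adjusted p was below 0.05, and a red line at each median. The cap-complex partners reach up to 1.85 with a median of 0.45, while the factors have a median of −0.34.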

How the data were processed

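The authors deposited raw counts per gene, 1 table for each of 4 libraries. HISAT2 2.1.0, featureCounts 1.6.0.4, edgeR 3.16.5 and the build dm6 are named, per the submitters' processing notes. For the annotation, the strand setting and multi-mapping reads the entry is: not given in the sources used here. The library kit was directional, with 13 minutes of fragmentation, per the labels' protocols. Genes were matched by FlyBase identifier to symbols and Ensembl positions on dm6 coordinates.

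Counts were filtered with filterByExpr, scaled with TMM and tested with edgeR 4.0.16 in R 4.3.3 (quasi-likelihood test, two-sided, Benjamini-Hochberg adjustment over 10245 genes, threshold 0.05). SE was taken from the F statistic, as the size of the log2 fold change over √F. The common biological coefficient of variation was 0.332. The length trend was removed through lowess offsets per library. DESeq2 1.42.0 and limma 3.58.1 were alternatives. The steps were tested on simulated data. Members, role classes and related lists were chosen with earlier results of these data known. Every member called, in a paralog family or most abundant in its class is named, with up to 4 called genes per related list. The remaining members were named after their values were seen. So were *eRF1*, *eRF3*, *pix*, *kra*, *mEFTu1*, *Thor*, *pAbp*, *cup*, *4E-T*, *Gcn2* and *PEK*. List symbols without a match were *S6k*, *mEFG2*, *vas* and *br*.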

Additional observations from a re-analysis of the deposited data

How the results depend on the processing

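Of the 9 genes called lower, *eIF6* was called under all 11 other settings with 4 libraries, *eIF3e* and *eIF3f1* under 10, *eEF1gamma*, *eEF1delta* and *eIF3h* under 9, *eIF4E3* under 8, and *eIF2alpha* and *eIF2Balpha* under 5. The number lower was 21 under upper-quartile scaling, 16 under DESeq2, 3 with the replicate block and 1 with the length trend removed, and ran from 0 to 21 with a replicate left out. The number higher was 1 under RLE scaling and library size alone, 2 under DESeq2, and 0 to 2 with a replicate left out. DESeq2 called 3521 of all genes, and leaving out a replicate gave 0 to 4215, the lone library being assumed to vary like the others. Upper-quartile scaling called 853 genes higher and 1556 lower, beside 1153 and 851. Same-numbered libraries did not deviate together (correlation −0.08), so the numbers were not taken as pairs. The replicate block ended the calls of *eIF2alpha* (adjusted p = 0.0571), *eIF2Balpha* (0.0759), *eIF3h* (0.0545), *eIF4E3* (0.0670), *eEF1gamma* (0.0607) and *eEF1delta* (0.0639).

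The median log2 fold change of the 46 was −0.29 under RLE scaling and DESeq2, −0.55 under upper-quartile scaling, −0.28 under library size alone, −0.37 under limma-voom and −0.17 with the length trend removed. With a replicate left out it ran from −0.39 to −0.28. Some genes that were not called changed sign, and the cause was not tested. Under upper-quartile scaling these were *eIF2Bepsilon* (−0.21), *eIF3a* (−0.12), *eIF4E5* (−0.14), *eIF4H1* (−0.0836), *eIF5* (−0.16) and *eIF5B* (−0.14). With the length trend removed they were *eIF2Bepsilon* (−0.00983), *eIF3a* (−0.0912), *eIF3j* (0.0764), *eIF3k* (0.0206), *eIF4E7* (0.0645), *eIF4H1* (−0.10), *eIF1* (0.38), *eIF1A* (0.0497), *eIF5* (−0.0540) and *eIF5B* (−0.16). *eIF2Bepsilon* also changed sign with the filter of 1 CPM (−0.0101) and the replicate block (−0.0202), and *eIF4E5* under limma-voom (−0.0178). With a replicate left out, *eIF2gamma* ran from −0.33 to 0.0738, *eIF2Bepsilon* from −0.32 to 0.34, *eIF3a* from −0.0453 to 0.28, *eIF3b* from −0.11 to 0.0142, *eIF4E1* from −0.13 to 0.0345, *eIF4E5* from −0.74 to 1.04, *eIF4E7* from −2.45 to 1.56, *eIF4H1* from −0.0621 to 0.35, *eIF1* from −0.29 to 0.13, *eIF1A* from −0.17 to 0.0159 and *eIF5B* from −0.0149 to 0.17.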
